A study of Mus musculus with 17 samples.

Results

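WT1 binding was described around 4 genes of the podocyte cytoskeleton and cell surface, Synpo, Actn4, Podxl and Ptpro, in mouse kidney after injury with adriamycin. Members were all peaks of the 5 deposited lists whose summit lay in a fixed mm9 window around a gene, and they numbered 252 of 107761 peaks. The windows ran from 60720000 to 60850000 on chromosome 18 (Synpo), from 29650000 to 29780000 on chromosome 7 (Actn4), from 31430000 to 31560000 on chromosome 6 (Podxl) and from 137170000 to 137440000 on chromosome 6 (Ptpro). Their lengths were 130 kb for each of the first 3 genes and 270 kb for Ptpro. Sites are numbered along each window and given by the median of their summits. In the gene order of GRCm38 the nearest protein-coding neighbours were Myoz3 and Ndst1 for Synpo, Capn12 and Eif3k for Actn4, Mkln1 and 1700012A03Rik for Podxl, and Rerg and Eps8 for Ptpro. No mm9 annotation was used, so a peak was tied to a window and not to a gene, exon or promoter.

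The immunoprecipitations came from mice aged 7 to 8 weeks and used the WT1 antibody sc-192. The mice were wildtype apart from the reporter transgenes of those used for podocytes. Podocytes purified from mTmG-Nphs2cre mice, in which the promoter of the podocin gene drives the Cre recombinase of the reporter, gave 3 libraries after PBS, with no day on the labels, 2 at day 9 after ADR (adriamycin) and 2 at day 14. The protocol speaks of 3 experiments per condition in these mice, where 2 libraries carry each ADR label. Isolated glomeruli of BALB/cJ mice, which hold endothelial and mesangial cells beside podocytes, gave 4 libraries after ADR and 4 after PBS, with 2 kidneys per immunoprecipitation and no day on the labels. Strain and preparation differed together, so podocytes and glomeruli cannot be told apart from the 2 strains. Each group was deposited as 1 peak list, so no difference between groups had a replicate error and no test was possible. The lists held 23402 peaks in PBS podocytes, 31949 at day 9, 6694 at day 14, 16634 in ADR glomeruli and 29082 in PBS glomeruli. Input libraries numbered 2, 1 from PBS glomeruli and 1 from ADR glomeruli, and none was labelled for podocytes. How inputs entered the background of each list is not given. A member's fold enrichment is the authors' value over background and orders peaks within a list only. A site without a peak was not called there, and the depth that set this is unknown. Peak lists hold no expression, so the purity of the podocytes could not be checked against marker genes.

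Podocytes wrap the glomerular capillaries with foot processes whose shape depends on actin, and WT1 is a zinc-finger transcription factor that these cells need. Synpo encodes synaptopodin, an actin-associated protein of foot processes, and Actn4 encodes alpha-actinin-4, which crosslinks actin filaments and is mutated in a human inherited kidney disease. Podxl encodes podocalyxin, the negatively charged sialomucin of the podocyte surface. Ptpro encodes a receptor-type tyrosine phosphatase of the podocyte's apical membrane, known as GLEPP1.

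The promoters of Actn4 and Ptpro were searched because WT1 is known for GC-rich recognition sequences. The 250 bases before the annotated start are shown as RefSeq gives them on GRCm38.p6, at chr7:28962333-28962582 on the minus strand for Actn4 and chr6:137252049-137252298 on the plus strand for Ptpro. Capitals mark matches to GNGGGNGNG on either strand, where N is any base.
Actn4: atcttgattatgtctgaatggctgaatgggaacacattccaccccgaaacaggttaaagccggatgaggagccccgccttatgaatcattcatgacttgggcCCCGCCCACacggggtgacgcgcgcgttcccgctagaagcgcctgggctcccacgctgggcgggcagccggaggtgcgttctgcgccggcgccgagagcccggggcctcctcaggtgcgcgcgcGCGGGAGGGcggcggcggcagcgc
Ptpro: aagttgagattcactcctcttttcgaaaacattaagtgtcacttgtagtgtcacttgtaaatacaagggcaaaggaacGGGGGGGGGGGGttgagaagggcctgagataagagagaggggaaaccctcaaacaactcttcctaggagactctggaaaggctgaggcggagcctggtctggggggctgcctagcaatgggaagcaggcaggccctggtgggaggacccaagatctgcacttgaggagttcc
Actn4 held 2 matches to GNGGGNGNG, and the 4 matches in Ptpro overlapped within 1 run of 12 G. This loose pattern was found in 40.1% of 32851 promoters of the same length. The stricter GCGGGGGCG and GCGTGGGCG were in neither promoter and in 2.57% and 0.536% of all promoters. The GC content was 67.6% for Actn4 and 53.6% for Ptpro, against a median of 52.4% over all. The build differs from that of the peaks, so no match was placed under a peak.

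All 4 windows held many WT1 peaks. Members numbered 52 in PBS podocytes, 75 at day 9, 21 at day 14, 41 in ADR glomeruli and 63 in PBS glomeruli, which was 0.222%, 0.235%, 0.314%, 0.246% and 0.217% of each list. When the genome was cut into 130 kb tiles, the median tile held 0 peaks in every list. The median 270 kb tile held 1 in PBS podocytes, at day 9 and in PBS glomeruli, and 0 in the other lists. Tiles were taken along whole chromosomes, with or without a gene, whereas each window was set around a gene. Synpo had 15 peaks in PBS podocytes, 15 at day 9, 4 at day 14, 15 in ADR glomeruli and 15 in PBS glomeruli. Its count was the same in all lists but day 14, and no more than 0.611% of 130 kb tiles held as many in these 4 lists. Synpo sites 5, 7 and 10 each held 2 peaks in at least 1 list. With a −log10 q of at least 10 the Synpo counts were 13, 13, 3, 6 and 7 in the same order of lists. Actn4 had 14, 21, 7, 10 and 18 peaks in the same order of lists, and at most 0.537% of tiles held as many. Podxl had 10, 18, 2, 8 and 12 peaks, and at day 14 its 2 peaks were matched or passed by 7.53% of tiles. Ptpro had 13, 21, 8, 8 and 18 peaks, and in ADR glomeruli 5.15% of 270 kb tiles held as many. The median fold enrichment of members was 7.03 in PBS podocytes, 7.61 at day 9, 6.67 at day 14, 7.97 in ADR glomeruli and 8.41 in PBS glomeruli. The medians of the whole lists were 6.30, 6.82, 6.27, 7.26 and 7.46, lower in all 5, but the genes differed. Ptpro lay above the list median in all 5 lists (12.5, 9.30, 7.65, 9.42 and 10.8-fold) and Podxl below it in all 5 (5.37, 6.20, 5.45, 4.72 and 7.17-fold). Actn4 lay above it in all lists but day 14 (8.65, 7.45, 5.80, 9.51 and 9.41-fold). Synpo lay below it in PBS podocytes, ADR glomeruli and PBS glomeruli (5.67, 6.60 and 6.57-fold) and above it at day 9 and day 14 (7.61 and 7.31-fold).

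**Figure D1:**
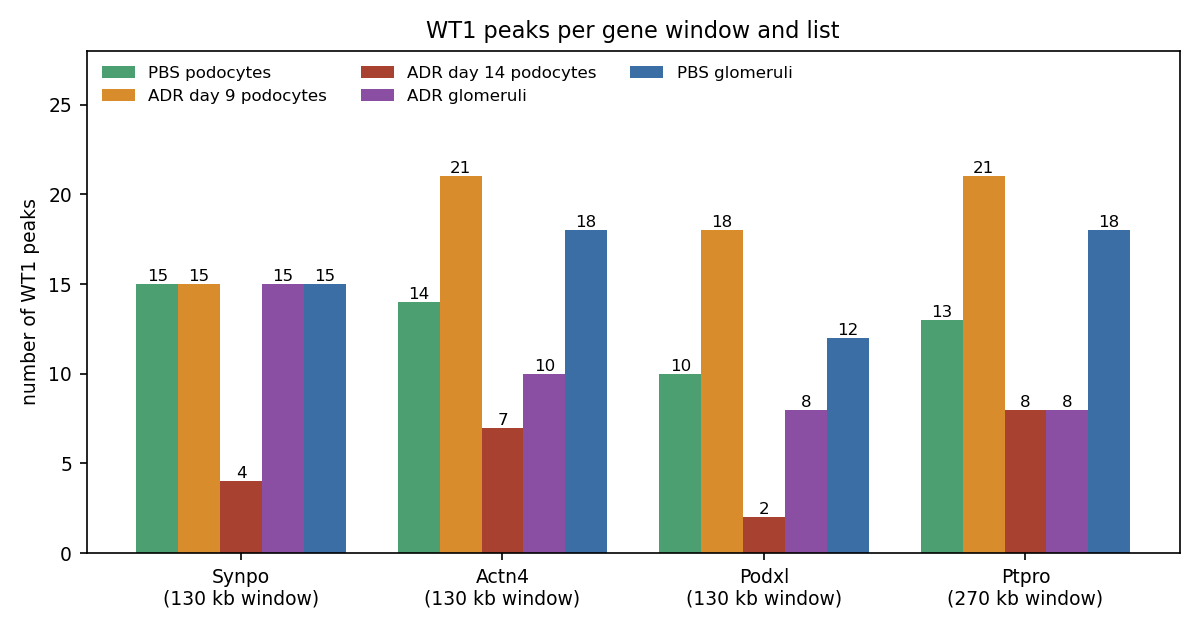
Bars give the number of WT1 peaks with a summit in each gene window (vertical axis) for each of the 5 peak lists. Synpo stands at 15 in 4 of the lists, while the counts of the other genes are highest at day 9, and all 4 genes are lowest, or tied for lowest, at day 14.

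The peaks of the 5 lists merged into 88 sites, of which Synpo had 20, Actn4 22, Podxl 22 and Ptpro 24. A peak in all 5 lists was found at 19 of the 88 sites (21.6%), against 11.2% of the 41770 merged sites of the genome. Members had a higher median enrichment than each of the 5 lists, and no share for sites of like enrichment was computed. They were spread over Synpo (4), Actn4 (5), Podxl (2) and Ptpro (8). At these 19 sites the 5 summits lay within 14 to 98 bp of one another, with a median spread of 47 bp.

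**Figure D2:**
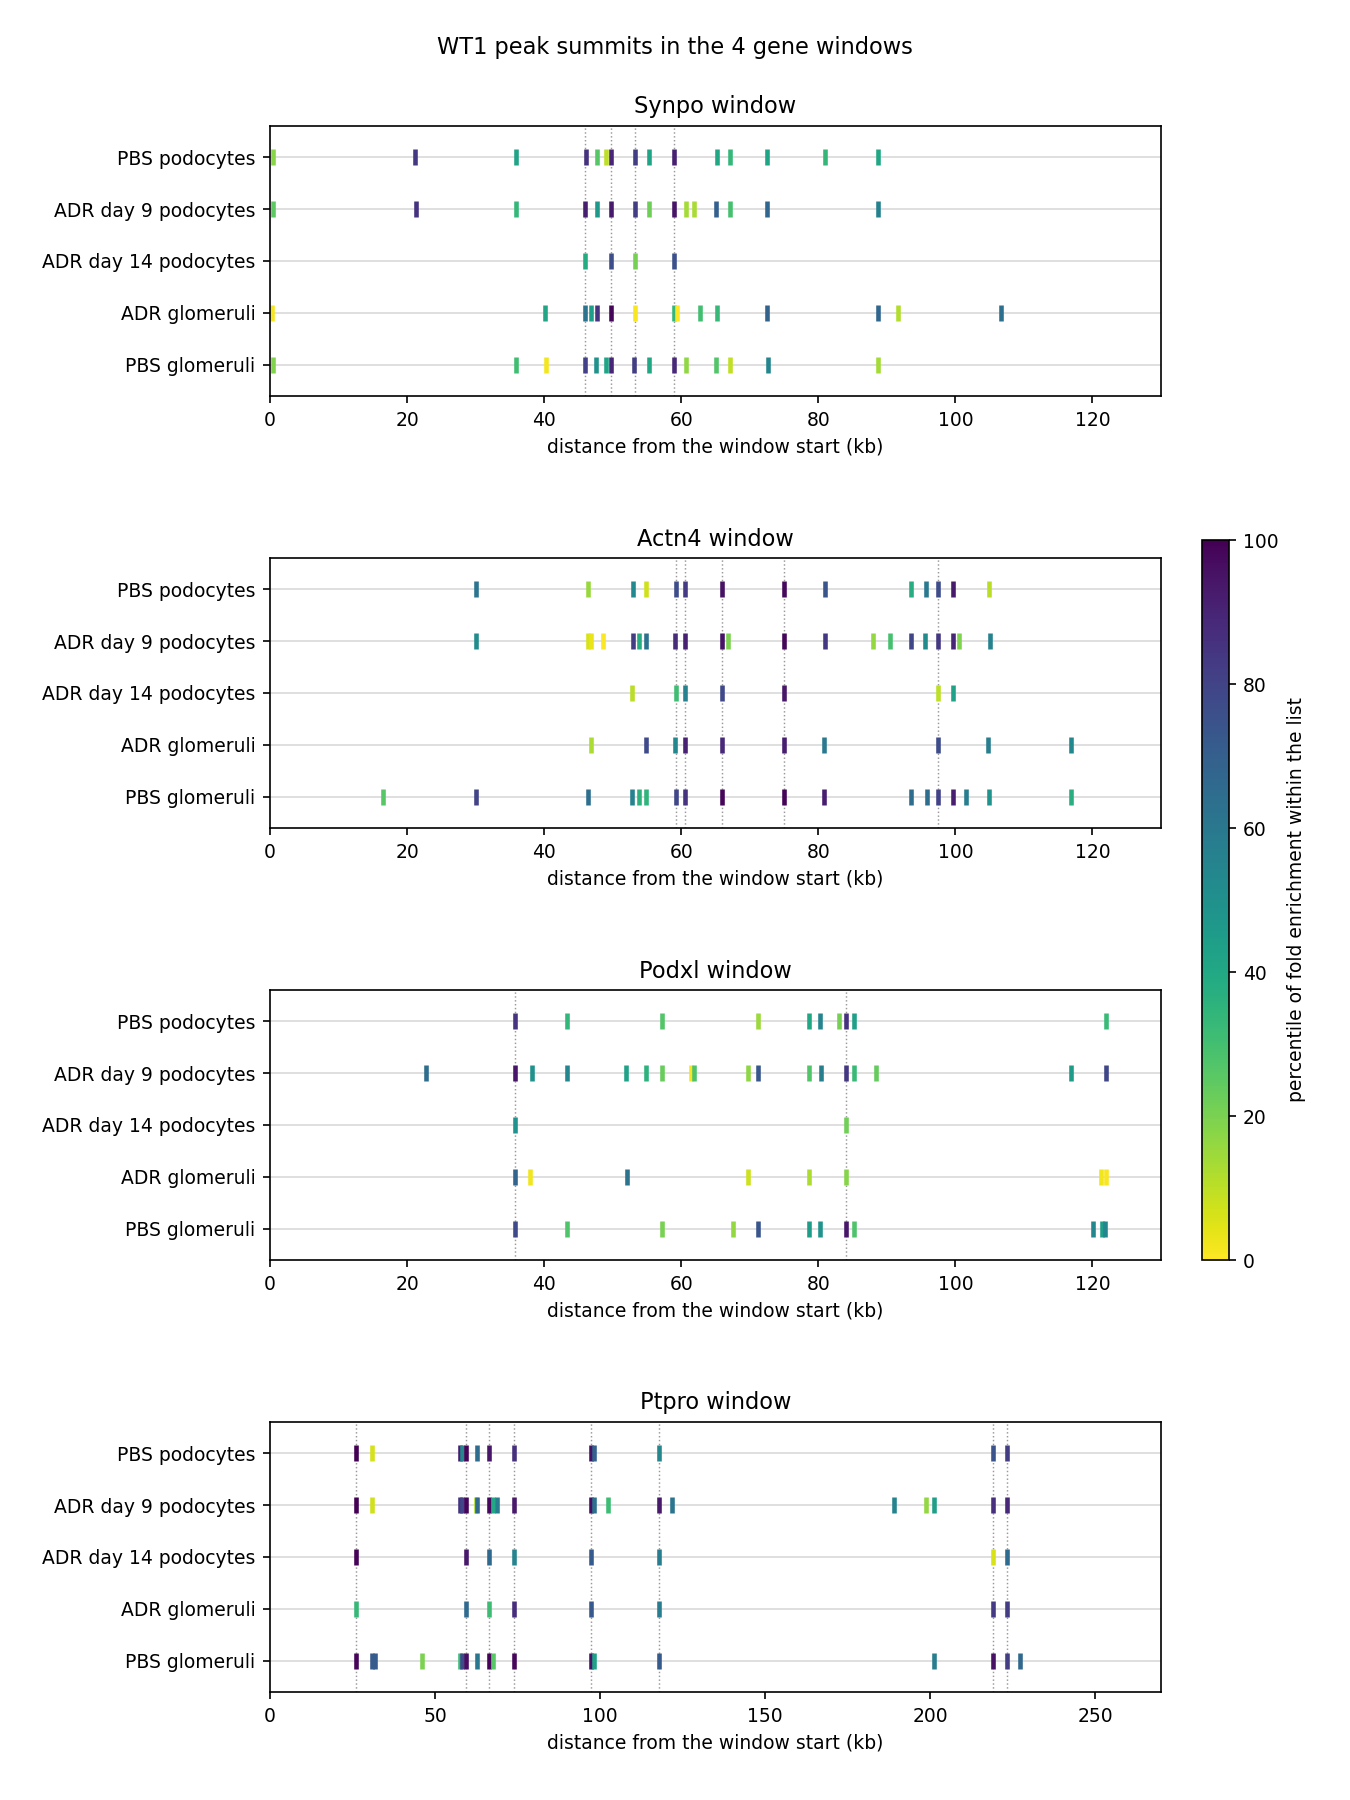
Ticks mark peak summits along each gene window, as distance from the window start in kb, with 1 row for each peak list, coloured by the percentile of fold enrichment within the list. Dotted lines mark the 19 sites with a peak in all 5 lists, and Ptpro shows a stretch of 67.4 kb with no site of any kind.

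At Synpo, 4 of the 20 sites were in all lists, and sites 7 and 10 led the window in different lists. Synpo site 10 (60778963), the strongest in PBS and day 9 podocytes, had enrichments of 18.3-fold in PBS podocytes, 30.1 at day 9, 8.98 at day 14, 6.14 in ADR glomeruli and 16.4 in PBS glomeruli. Synpo site 7 (60769795) had 16.9, 26.5, 9.22, 28.1 and 17.1-fold in the same order, and was the strongest of the window in ADR glomeruli, PBS glomeruli and at day 14. Synpo site 8 (60773187), which lies next to it, had 12.4, 14.8, 4.65, 3.635 and 13.7-fold. In ADR glomeruli, site 7 stood at the 98.8th percentile of its list and site 8 at the 0.854th, against the 89.8th and 82.4th percentiles in PBS glomeruli. A decile is 1 of 10 equal parts of a list ordered by enrichment. Of 1863 PBS glomerular peaks in the same decile of enrichment as site 8 that had an ADR peak, 8 (0.429%) stood as low or lower in the ADR list. For site 7, in the same decile, 1831 (98.3%) stood as low or lower. Site 8 had the lowest such share of the 33 sites compared between the glomerular lists and site 7 the highest. Both are singled out after their values were seen. The lists differ in length, so this is a place within each list and not a measured change. Synpo site 5 (60766013) had 14.03, 23.3, 5.64, 8.37 and 13.2-fold.

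Synpo also held sites called in few lists. Synpo site 2 (60741234) had 13.2-fold enrichment in PBS podocytes and 16.9-fold at day 9, with no peak at day 14 or in either glomerular list. A PBS podocyte peak in the same decile of enrichment lacked any glomerular peak in 63 of 2347 cases (2.68%), and a day 9 peak in 6.26%. Of the 9 PBS podocyte members in that decile, 1 lacked a glomerular peak. Of all PBS podocyte members, 94.2% overlapped a PBS glomerular peak, against 80.7% of the list, so site 2 is not typical of them. Synpo had 3 sites with a peak in ADR glomeruli alone, or 3.41% of the 88 sites, against 3.37% of all merged sites. The strongest of them, Synpo site 20 (60826715), had 8.58-fold enrichment. The other 3 windows held no site of that kind.

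At Actn4 the leading site was the same in all 5 lists. Actn4 site 11 (29724966) had 33.3-fold enrichment in PBS podocytes, 52.4 at day 9, 16.3 at day 14, 17.2 in ADR glomeruli and 28.2 in PBS glomeruli. Actn4 site 9 (29715929) had 24.9, 31.3, 9.47, 15.1 and 26.8-fold, and Actn4 site 8 (29710527) had 12.6, 23.0, 6.67, 16.2 and 14.7-fold. These sites crowd into the middle of the window. Actn4 site 7 (29709165) had 10.5, 18.8, 5.23, 7.52 and 12.7-fold, and Actn4 site 17 (29747449) had 10.7, 15.9, 3.85, 10.9 and 13.1-fold.

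At Actn4 all 10 ADR glomerular peaks overlapped a PBS glomerular peak (95% exact interval 69.2 to 100), against 82.6% of the ADR glomerular list. Of the 18 PBS glomerular peaks, 10 overlapped an ADR peak (55.6%, 30.8 to 78.5), against 46.5% of the PBS glomerular list. Both list shares lie inside the intervals. Actn4 site 18 (29749666) had 20.7-fold enrichment in PBS podocytes, 20.3 at day 9, 5.80 at day 14 and 18.4 in PBS glomeruli, and no peak in ADR glomeruli. It and Actn4 site 5 (29702859; 6.60, 14.8, 3.93 and 8.14-fold in the same 4 lists) were the 2 sites absent from ADR glomeruli alone. Such sites were 2.27% of the 88 and 3.44% of all merged sites. Actn4 sites 2, 15, 16 and 20 also had no ADR glomerular peak, with PBS glomerular enrichments of 12.9, 9.41, 9.40 and 8.40-fold.

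Podxl had 2 sites of 22 with a peak in all lists, the fewest of the 4 windows. Podxl site 2 (31465746) had enrichments of 13.7-fold in PBS podocytes, 29.1 at day 9, 6.19 at day 14, 9.20 in ADR glomeruli and 12.2 in PBS glomeruli. Podxl site 16 (31514062) had 14.1, 15.9, 4.72, 5.27 and 20.3-fold. These were the only 2 Podxl peaks of the day 14 list. Podxl site 16 stood at the 18.3rd percentile in ADR glomeruli and at the 94.1st in PBS glomeruli. Of PBS glomerular peaks in its decile with an ADR peak, 3.87% stood as low or lower. At the other Podxl sites compared, this share was 1.25% (site 22), 2.13% (site 21), 13.5% (site 13) and 53.2% (site 2).

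Of the 18 Podxl peaks at day 9, 9 overlapped a PBS podocyte peak (50%, 26.0 to 74.0), against 64.0% of the day 9 list, a share inside the interval. The other peaks lay at 9 sites, where Ptpro had 8 sites of this kind, and 5 of the Podxl sites had a −log10 q of at least 10. These were Podxl site 1 (31452737; 8.99-fold), site 3 (31468058; 6.74-fold), site 19 (31546923; 6.31-fold), site 5 (31482014; 6.09-fold) and site 11 (31499717; 4.37-fold). At Ptpro 3 of the 8 sites reached that q, and at Synpo and Actn4 0 did. The share of all day 9 peaks of that q without a PBS podocyte peak was not computed, so these counts have no background. Podxl sites 3, 5 and 11 also had an ADR glomerular peak, at 3.90, 8.38 and 4.55-fold, and no peak in PBS podocytes or PBS glomeruli. The day 9 and ADR glomerular summits of site 3 lay 325 bp apart. These 3 were the only sites of the 4 windows with a peak in day 9 podocytes and ADR glomeruli and in neither PBS list, 3.41% of the 88 against 1.96% of all merged sites. In ADR glomeruli none of the 3 reached a −log10 q of 10. In the other direction, Podxl site 15 (31512958; 4.36-fold) had a peak in PBS podocytes and none at day 9.

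Ptpro held the strongest members of the podocyte lists. Ptpro site 1 (137195984) had 66.5-fold enrichment in PBS podocytes, 77.3 at day 9, 28.5 at day 14, 6.06 in ADR glomeruli and 26.4 in PBS glomeruli. It led the window in the 3 podocyte lists and ranked 7 of 8 in ADR glomeruli and 3 of 18 in PBS glomeruli, with all 5 summits within 17 bp. Of PBS glomerular peaks in the same decile with an ADR peak, 200 of 2272 (8.80%) stood as low or lower in the ADR list. At the other Ptpro sites compared, this share ran from 7.79% (site 10) to 64.2% (site 23). Ptpro site 7 (137229287) came next in the podocyte lists, with 44.8, 50.7, 16.0, 8.93 and 22.5-fold. In PBS glomeruli Ptpro site 10 led the window. Ptpro site 13 (137243833), with 14.5, 27.5, 6.66, 14.1 and 26.5-fold, was the strongest of the window in ADR glomeruli. The order of Ptpro sites thus differed between the ADR glomerular list and the podocyte lists.

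All 8 ADR glomerular peaks of Ptpro lay in sites with a peak in every list, as did 51.2% of the 41 ADR glomerular members and 30.0% of the whole ADR glomerular list. The share for peaks of like enrichment was not computed here. The other sites of this kind were Ptpro site 10 (137236414) with 22.8, 45.3, 7.70, 5.975 and 28.3-fold, Ptpro site 14 (137267174) with 25.1, 35.0, 8.53, 9.92 and 21.6-fold, and Ptpro site 17 (137287849) with 6.68, 26.0, 6.89, 7.97 and 10.9-fold. Beyond a stretch of 67.4 kb without sites lay Ptpro site 22 (137389033) with 9.94, 17.8, 3.52, 12.3 and 21.9-fold and Ptpro site 23 (137393228) with 12.5, 19.6, 7.61, 12.2 and 13.4-fold. Ptpro site 5 (137227502) had 20.1-fold enrichment in PBS podocytes, 17.3 at day 9 and 5.90 in PBS glomeruli, and no peak at day 14 or in ADR glomeruli. Ptpro sites 18, 12 and 19 (8.37, 7.75 and 7.44-fold) had a peak at day 9 and in no other list.

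**Figure D3:**
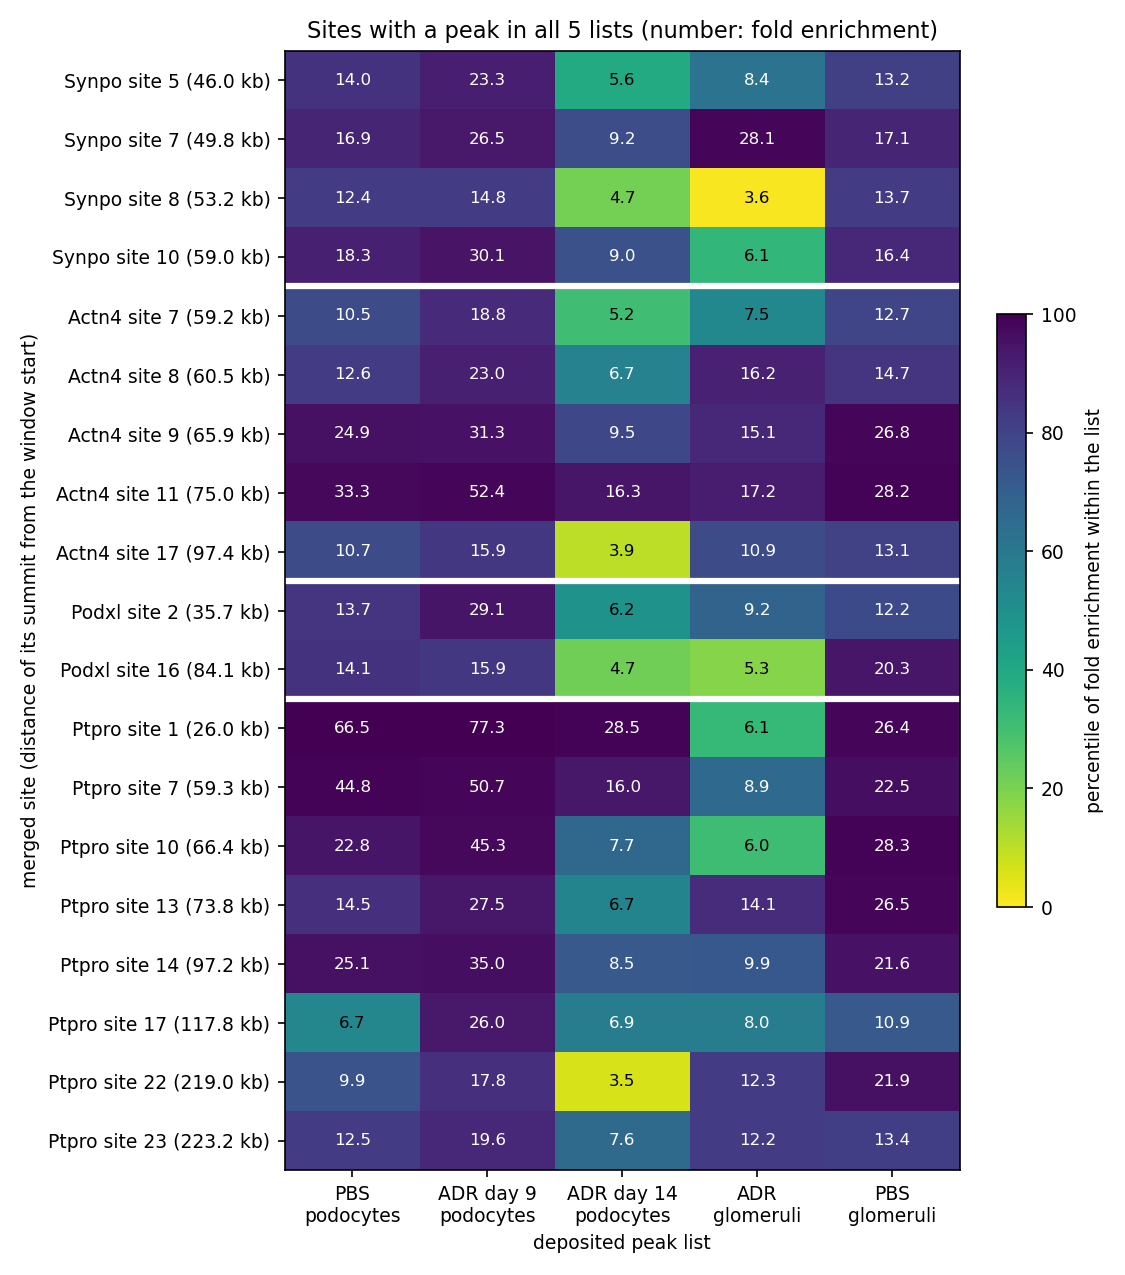
Rows are the 19 sites with a peak in all 5 lists, labelled by gene and distance from the window start, columns are the peak lists, and numbers are the authors' fold enrichment. Ptpro site 1 reads 66.5 in PBS podocytes, 26.4 in PBS glomeruli and 6.06 in ADR glomeruli. These numbers order peaks within a list only and are not a measured change between lists. Actn4 site 11 leads its window in every column.

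ADR glomeruli were compared with PBS glomeruli to ask how WT1 sites at these genes differed after injury. ADR glomeruli had 41 members and PBS glomeruli 63, a ratio of 0.651, where the whole lists gave 0.572. By gene the ratio of ADR to PBS glomeruli was 1 for Synpo, 0.556 for Actn4, 0.667 for Podxl and 0.444 for Ptpro. Of the ADR glomerular members, 34 of 41 overlapped a PBS glomerular peak (82.9%, 95% exact interval 67.9 to 92.8), against 82.6% of all ADR glomerular peaks. Of the PBS glomerular members, 34 of 63 overlapped an ADR glomerular peak (54.0%, 40.9 to 66.6), against 46.5% of the list. The interval reaches the share of the list, and at the share of peaks of like enrichment 32.0 of 63 would overlap. By gene these were 11 of 15 for Synpo, 10 of 18 for Actn4, 5 of 12 for Podxl and 8 of 18 for Ptpro. ADR glomeruli lacked a peak at 28 sites that PBS glomeruli had, and 16 of these had a −log10 q of at least 10 in PBS glomeruli. Beside the 6 at Actn4 given above, 3 were at Podxl and 7 at Ptpro, and Synpo had none. The Podxl sites were site 12 (31501206; 11.3-fold in PBS glomeruli), site 20 (31550077; 7.87-fold) and site 14 (31510267; 7.36-fold). The 5 strongest at Ptpro were site 6 (137228258; 12.2-fold), site 2 (137200819; 10.8-fold), site 3 (137201697; 10.7-fold), site 24 (137397163; 9.79-fold) and site 9 (137232826; 8.79-fold). The share of all PBS glomerular peaks of that q without an ADR glomerular peak was not computed, so these counts have no background. In the other direction, ADR glomeruli had 6 sites without a PBS glomerular peak, 3 at Synpo and 3 at Podxl, of which Synpo site 20 alone reached that q. Intervals cover counting error only, and in whole glomeruli fewer podocytes and less WT1 bound per podocyte cannot be told apart.

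Day 9 podocytes had more members than PBS podocytes, 75 against 52, a ratio of 1.44 where the whole lists gave 1.37. The ratio of day 9 to PBS podocytes was 1 for Synpo, 1.5 for Actn4, 1.8 for Podxl and 1.62 for Ptpro. Of the day 9 members, 50 of 75 overlapped a PBS podocyte peak (66.7%, 54.8 to 77.1), against 64.0% of the list. Of the PBS podocyte members, 50 of 52 overlapped a day 9 peak (96.2%, 86.8 to 99.5), against 87.0%. At the share of PBS podocyte peaks of like enrichment, 46.7 of 52 would do so. A peak at day 9 alone was found at 18 of the 88 sites (20.5%; 1 at Synpo, 5 at Actn4, 6 at Podxl and 6 at Ptpro), against 16.1% of all merged sites.

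Day 14 podocytes had few peaks in the windows, most of them at sites with a strong peak in PBS podocytes. The ratio of day 14 to PBS podocytes was 0.404 for the members and 0.286 for the whole lists. By gene it was 0.267 for Synpo, 0.5 for Actn4, 0.2 for Podxl and 0.615 for Ptpro. All 21 day 14 members overlapped a PBS podocyte peak (83.9 to 100), against 96.1% of the list, and all 21 overlapped a day 9 peak, against 99.7%. Of the PBS podocyte members, 21 of 52 overlapped a day 14 peak (40.4%, 27.0 to 54.9), against 27.0% of the list. Of the day 9 members, 21 of 75 did (28%, 18.2 to 39.6), against 20.5%. Given the enrichment of the members, 19.3 of 52 PBS podocyte peaks and 21.3 of 75 day 9 peaks would overlap, so these shares were close to those of peaks of like enrichment. PBS podocyte members with a day 14 peak had a median enrichment of 14.1-fold, against 5.54-fold for those without. Ptpro site 5, at 20.1-fold, was the strongest without one. Day 14 lacked a peak at 30 sites that PBS podocytes had, 22 of them with a −log10 q of at least 10 in PBS podocytes. At Synpo there were 9, led by site 2 (13.2-fold), site 3 (60755949; 5.73-fold), site 9 (60775253; 5.69-fold), site 16 (60792574; 5.67-fold) and site 14 (60785152; 5.55-fold). At Actn4 they were site 12 (29730895; 9.80-fold), site 2 (29680095; 7.5-fold), site 16 (29745725; 7.30-fold) and site 3 (29696464; 3.95-fold). Podxl had 5, site 14 (6.76-fold), site 17 (31515170; 5.74-fold), site 13 (31508660; 5.54-fold), site 15 (4.36-fold) and site 12 (3.94-fold). At Ptpro the others were site 15 (137268245; 8.80-fold), site 9 (8.09-fold) and site 6 (6.68-fold). The share of all PBS podocyte peaks of that q without a day 14 peak was not computed, so these counts have no background. Day 14 had no site that PBS podocytes lacked. Of the 21 day 14 members, 19 (90.5%) lay in sites with a peak in all lists, against 71.5% of the day 14 list, without matching for enrichment. Sites with a peak in every list but day 14 numbered 11 (12.5%; 5 at Synpo, 4 at Actn4, 2 at Podxl and 0 at Ptpro), against 13.7% of all merged sites.

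PBS podocytes and PBS glomeruli shared most members. Of the PBS podocyte members, 49 of 52 overlapped a PBS glomerular peak (94.2%, 84.1 to 98.8), against 80.7% of the list. Of the PBS glomerular members, 50 of 63 overlapped a PBS podocyte peak (79.4%, 67.3 to 88.5), against 66.4%. At the shares of peaks of like enrichment, 43.4 of 52 (83.5%) and 45.3 of 63 (72.0%) would overlap. The first of these shares lies just below its interval and the second inside it. Sites with a peak in PBS podocytes, day 9 podocytes and PBS glomeruli and in neither of the other lists numbered 16 (18.2%; 3 at Synpo, 3 at Actn4, 5 at Podxl and 5 at Ptpro), against 13.3% of all merged sites. Sites with a peak in PBS glomeruli alone numbered 7 (7.95%; 2 at Actn4, 2 at Podxl and 3 at Ptpro), against 11.0%.

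**Figure D4:**
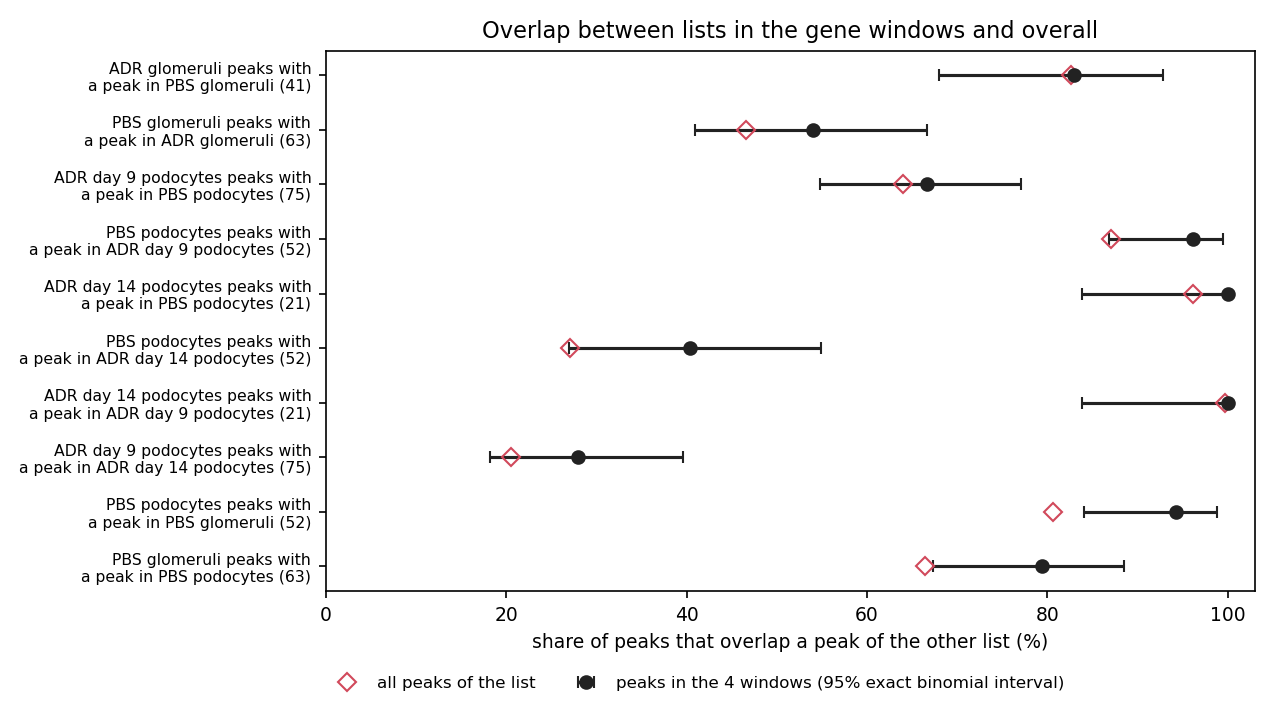
Points give the share of members (percent, horizontal axis) that overlap a peak of a second list, with 95% exact binomial intervals, and open diamonds give the share of the whole list. The diamonds lie outside the intervals for PBS podocyte against PBS glomerular peaks and for PBS glomerular against PBS podocyte peaks, and at or inside the interval in the other comparisons.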

How the data were processed

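The submitters' processing notes name Bowtie 0.12.7, the mm9 build and the peak caller MACS2. Not given in the sources used here are the cutoff and the way replicates and inputs entered the calling. As deposited by the authors, each immunoprecipitation group has 1 list. The fold enrichment of a peak, a ratio over background, is the authors' deposited value. The −log10 p and −log10 q values are the authors' values from the caller, with a smallest −log10 q of 1.51 in PBS podocytes, 1.52 at day 9, 2.25 at day 14, 1.31 in ADR glomeruli and 1.32 in PBS glomeruli. The score column deposited by the authors was not used.

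Members were peaks with a summit in the window of a gene. Peaks overlapping by at least 1 bp were called shared, and sites were unions of overlapping peaks. A percentile is the place in the order of fold enrichment within a list. Shares carry exact (Clopper-Pearson) 95% intervals. The share of peaks of like enrichment is that of the whole list, decile by decile. Sites were named where they led a window, had a peak in every list, or had a peak in 1 of 2 compared lists with −log10 q of at least 10 (at most 5 per gene). The share of all merged sites that differ with that q was not computed. The members and lists were chosen with earlier results of these data known. Code for overlaps and merging was checked on simulated peaks with known shares. Intervals came from scipy 1.17.1, tables from pandas 2.3.3 and numpy 2.4.6 and plots from matplotlib 3.10.9, under Python 3.11.15. RefSeq tables of GRCm38.p6 gave gene neighbours, and promoters for 2 of the 4 genes. Alternatives were overlap of 50% of the shorter peak, summits within 200 bp, −log10 q of at least 10, lists trimmed to equal length, windows widened by 20 kb and merging of peaks within 500 bp.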

Additional observations from a re-analysis of the deposited data

Results flagged for a closer look

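Against PBS, the number of peaks moved in opposite directions in ADR glomeruli and day 9 podocytes at 3 of the 4 genes. These differences were not tested because each group had 1 list. At Actn4 the ratio of ADR to PBS was 0.556 in glomeruli and that of day 9 to PBS was 1.5 in podocytes. At Podxl the ratios were 0.667 in glomeruli and 1.8 in podocytes. At Ptpro they were 0.444 in glomeruli and 1.62 in podocytes. Over the 4 windows together they were 0.651 and 1.44, and Synpo gave 1 in both. The whole lists gave 0.572 and 1.37, so the direction is that of all peaks. It did not hold at day 14, where the ratio to PBS podocytes was below 1 at every gene, as it was for the whole lists (0.286). It was 0.267 for Synpo, 0.5 for Actn4, 0.2 for Podxl and 0.615 for Ptpro, and the labels give no day for the glomeruli. Strain, preparation and list length differ together, and the part of each in the ratios was not tested.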

How the results depend on the processing

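Of 63 alternative values of 16 results, 56 stayed close to the value reported and 7 moved, and the cause was not tested. A count within 1.5-fold was called close, such as 46 PBS glomerular members with a −log10 q of at least 10, in place of 63. In trimmed lists, 70.7% of ADR glomerular members overlapped a PBS glomerular peak, in place of 82.9%, and this too was called close. With a −log10 q of at least 10, ADR glomeruli had 18 members, in place of 41, and the sites with such a peak in every list numbered 9, in place of 19. With the same limit in both lists, 37.0% of PBS glomerular members (17 of 46) overlapped an ADR glomerular peak, in place of 54.0%, and 76.7% of PBS podocyte members (33 of 43) overlapped a PBS glomerular peak, in place of 94.2%. When the longer list was trimmed to as many peaks as the shorter by caller p-value, 85.7% of day 9 members (48 of 56) overlapped a PBS podocyte peak, in place of 66.7%. Under this trimming 82.6% of PBS podocyte members (19 of 23) overlapped a day 14 peak, in place of 40.4%, and 84% of day 9 members (21 of 25) did, in place of 28%. The shares of whole lists under the stricter q or the trimming were not computed. These values thus have no background and cannot be set against the list shares given above. Overlap of 50% of the shorter peak moved none of the 10 shares and summits within 200 bp none of 11 results. Wider windows, any overlap with the window and counting close peaks once moved none of the 5 member counts, and merging peaks up to 500 bp apart did not move the count of sites in all lists. No paired analysis was possible because the libraries of a group share 1 list, and no replicate could be left out for the same reason. Read depth was not used here, so the limit it sets on sites without a peak is unknown.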

Other observations

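Ptpro site 17 held different places in the day 9 and PBS podocyte lists. It stood at the 93.0th percentile of the day 9 list with 26.0-fold enrichment, against the 53.7th percentile of the PBS podocyte list with 6.68-fold. Of PBS podocyte peaks in the same decile of enrichment with a day 9 peak, 2086 of 2107 stood as low or lower at day 9. It had the highest such share of the 49 sites compared between these lists, as some site must, and was singled out after its values were seen.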
